A study of Homo sapiens with 18 samples.

Results

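Kinesins are the motor proteins that walk along microtubules or take their ends apart, and the family was read here through every gene whose symbol in the platform's probe table is KIF with a number, or KIFC1 to KIFC3, without pseudogenes and antisense genes. This gave 41 genes with 57 probes among 20045 named genes. A probe was kept where its signal exceeded the negative controls at a detection p under 0.01 on at least 3 of the 18 arrays, which left 32 kinesins among 12975 genes tested. They were measured on Illumina HumanHT-12 v4 arrays in IMR-32 and SK-N-SH, established human neuroblastoma lines grown in RPMI medium with fetal calf serum. Each line was treated for 24 h with the solvent DMSO, with 1 µM withaferin A (WA) or with 1 µM withanone (WN), with 3 biological replicates in each of the 6 groups. WA and WN are steroidal lactones of the plant Withania somnifera that differ in where epoxide and hydroxyl groups sit on the steroid rings. The labels name no genetic change in any group, and the DMSO groups hold the solvent alone. SK-N-SH is known to hold neuroblastic and substrate-adherent cells. The p-values measure the spread between cultures of the same line.

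All kinesins share an ATP-driven motor domain, and the rest of the protein decides what they do. Mitotic kinesins are made mainly in dividing cells, where they build the spindle, move and align chromosomes and complete the separation of daughter cells. Transport kinesins carry vesicles, organelles and protein complexes outward along axons and dendrites, and many of them are abundant in neurons and in tumours of neural origin. Other members have other duties, such as signalling in the primary cilium, or carry motor domains with little activity.

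The 13 mitotic members with a probe were KIF2B, KIF2C, KIF4A, KIF4B, KIF11, KIF14, KIF15, KIF18A, KIF20A, KIF20B, KIF22, KIF23 and KIFC1. Of these, 11 were tested, and all 11 were detected on all 18 arrays. KIF2B was detected on 0 arrays and KIF4B, a near-identical copy of KIF4A, on 1, so neither was tested, and signal of the KIF4A probe cannot be split between these copies. KIF18B had no named probe in the table used here. The 16 transport members gave 14 tested genes, of which 10 were detected on every array. KIF5A, the neuronal conventional kinesin heavy chain, was detected on 0 arrays by either of its 2 probes, and KIF3A, a kinesin-2 subunit, was detected on 2, so neither has a value below. Of the 12 remaining members 7 were tested, and KIF9, KIF12, KIF19, KIF25 and KIFC3 did not pass the filter. Signal of different probes is not comparable, so levels are set side by side for the same gene only.

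The arrays detected between 17102 and 20781 probes. The brightest probe reached between 19100 and 21480 on the 6 WN arrays and between 29826 and 37328 on the 12 others, so the scale of the WN arrays differed before normalisation. All 6 WN arrays and none of the 12 others had the lower scale, so compound and array scale cannot be told apart where WN is compared. Detection p-values of the WN arrays, as deposited, did not follow their own signal and were derived again from it. Of 9 tested adrenergic neuroblast markers, 8 were detected on all 3 DMSO arrays of IMR-32. With DMSO, 2 of the 9 were higher and 1 lower in SK-N-SH than in IMR-32, and 7 of 10 mesenchymal markers were higher. Of all genes 27% were higher and 24.5% lower. The shared estimate of the spread joins a narrow line and a wide one: the median standard deviation of the 11 mitotic kinesins was 0.14, 0.18 and 0.14 with DMSO, WA and WN in IMR-32, and 0.35, 0.81 and 0.26 in SK-N-SH, all in log2 units.

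The first question was what WA did to the family in SK-N-SH. Of the 32 kinesins, 17 passed the test. All 11 tested mitotic kinesins fell, with a median log2 difference of -1.58, whereas the 14 transport kinesins had a median of -0.12, with 2 higher and 2 lower. Over all 12975 genes the median was 0.02, and 31.9% were called, 15.4% lower and 16.4% higher, at an adjusted p under 0.05, the threshold used throughout. In these bulk samples, fewer dividing cells and less RNA per cell cannot be told apart.

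KIF20A, which carries the chromosomal passenger complex to the central spindle, fell most on average among the mitotic kinesins. Its log2 intensity was 10.39, 10.81 and 10.12 on the DMSO arrays (replicates 1 to 3), 9.84, 8.19 and 6.87 with WA and 10.49, 10.66 and 10.04 with WN. All 3 WA arrays lay below all DMSO arrays, but replicate 1 stayed close to them. The difference was -2.14 ± 0.46 (log2, SE), 4.41-fold lower, with an adjusted p of 0.00226. Leaving out WA replicate 3 or WA replicate 1 moved it to -1.43 or -2.91.

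The motors of the spindle poles fell too. KIF11, the bipolar motor that slides antiparallel microtubules, read 9.69, 9.86 and 9.05 with DMSO and 8.85, 7.70 and 7.27 with WA. Every WA array was below every DMSO array, and the difference was -1.59 ± 0.29, 3.01-fold lower, with an adjusted p of 0.000653; its second probe gave -1.52. KIF15, which can back up KIF11, read 8.12, 8.24 and 7.66 with DMSO and 6.76, 6.60 and 5.93 with WA. It had the smallest p of the class, at a difference of -1.58 ± 0.22 and an adjusted p of 7.64e-05. KIFC1, a minus-end-directed motor that clusters centrosomes, read 10.03, 10.12 and 8.86 with DMSO and 9.77, 7.83 and 6.39 with WA, so its groups overlapped. Its difference of -1.67 ± 0.56 had an adjusted p of 0.0304, and the call was lost on leaving out DMSO replicate 1 or 2 or WA replicate 2 or 3, with adjusted p between 0.0881 and 0.18.

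Motors of chromosomes and kinetochores fell as well. KIF2C, a depolymerase of centromeric microtubules, read 9.08, 9.35 and 8.44 with DMSO and 8.58, 7.46 and 6.06 with WA. WA replicate 1 lay within the DMSO range, and the difference was -1.59 ± 0.40 with an adjusted p of 0.00648. KIF4A, a chromosome-bound motor that works with PRC1, read 8.84, 9.37 and 8.65 with DMSO and 8.67, 7.25 and 5.77 with WA, again with replicate 1 inside the DMSO range. Its difference was -1.72 ± 0.46 (adjusted p 0.00902). KIF22, which pushes chromosome arms outward, read 10.71, 10.93 and 10.40 with DMSO and 10.01, 8.89 and 8.82 with WA, a difference of -1.44 ± 0.25 without overlap. KIF18A, which dampens chromosome movement at metaphase, had the smallest change of the class, from 7.07, 7.15 and 7.01 to 6.45, 6.65 and 5.62, a difference of -0.84 ± 0.22 (adjusted p 0.0083). Without WA replicate 3, KIF2C, KIF4A and KIF18A were at -0.94, -0.99 and -0.53.

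The cytokinesis motors completed the class. KIF23, the motor subunit of the centralspindlin complex, read 8.87, 9.38 and 9.08 with DMSO and 8.67, 7.55 and 6.81 with WA. The groups did not overlap, although WA replicate 1 lay close to the lowest DMSO array. Its difference was -1.44 ± 0.30 (adjusted p 0.00183), and its second, dimmer probe gave -0.80. KIF14, which binds PRC1 at the midbody, read 8.82, 9.51 and 8.07 with DMSO and 7.91, 8.01 and 6.98 with WA, a difference of -1.17 ± 0.29. KIF20B, another motor of late cytokinesis, read 8.63, 9.23 and 8.67 with DMSO and 8.28, 7.79 and 7.14 with WA, a difference of -1.11 ± 0.24. The WA and DMSO arrays did not overlap for 8 of the 11 mitotic kinesins, and the same held for 35.8% of all genes.

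**Figure D1:**
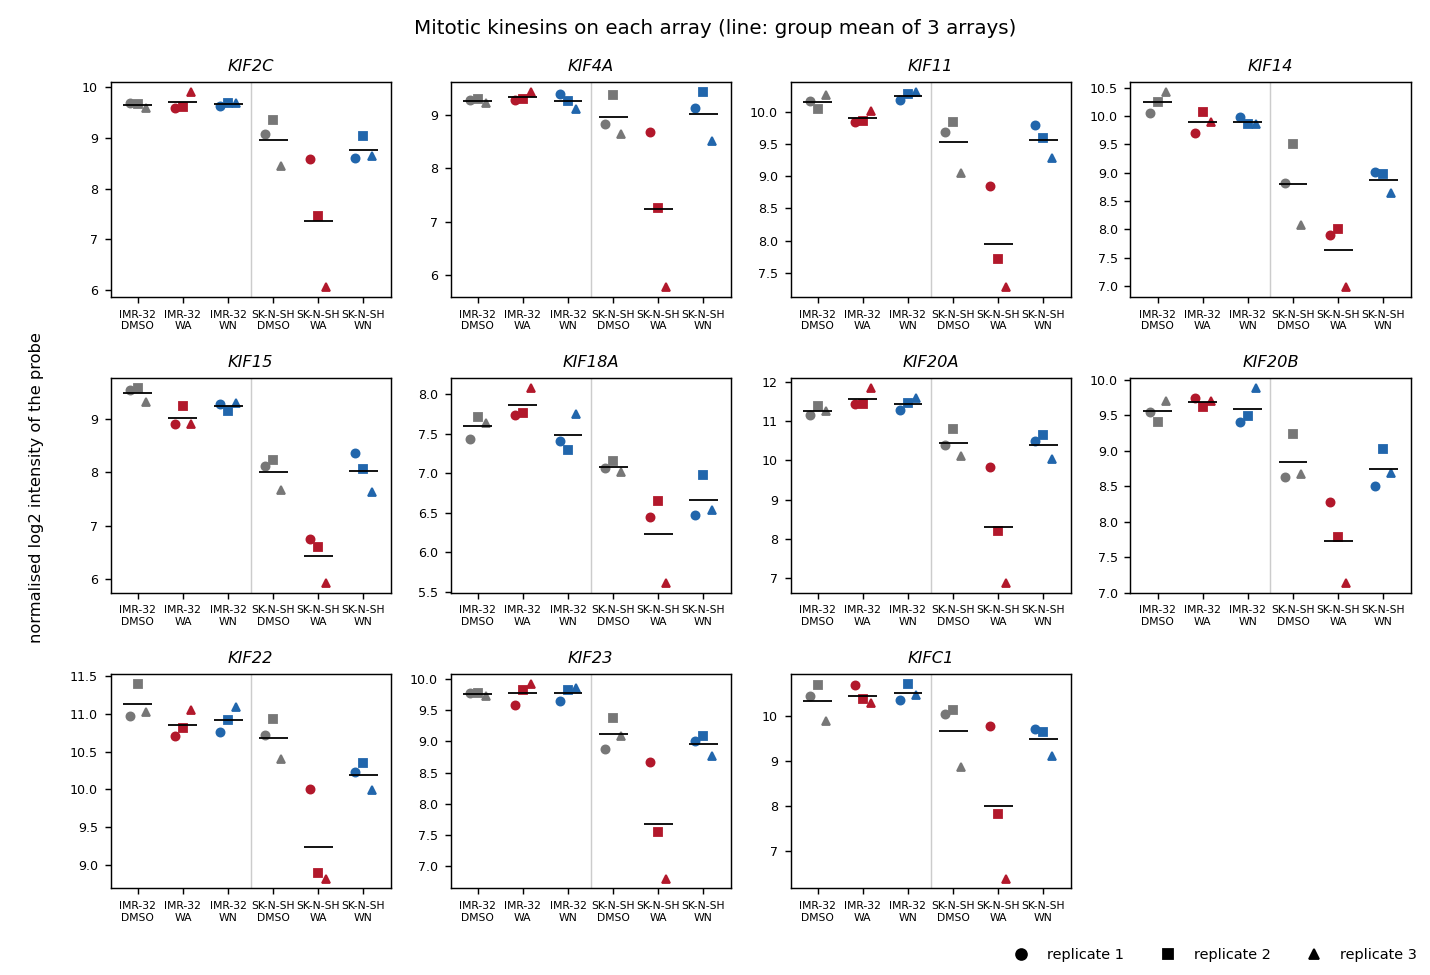
Normalised log2 intensity of the 11 tested mitotic kinesins on the 18 arrays; points are arrays, marker shape is the replicate and lines are group means of 3 arrays. In SK-N-SH the WA means lie below the DMSO means in all 11 panels, by 0.84 (KIF18A) to 2.14 (KIF20A), while in IMR-32 none of the 11 differences passed the test.

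The size of the fall differed between cultures. Taken as the median deviation of the 11 mitotic kinesins from the SK-N-SH DMSO mean, it was -0.60, -1.57 and -2.26 on WA replicates 1, 2 and 3. On replicate 1, 8 of 11 lay below the lowest DMSO array, and on replicates 2 and 3 all 11 did. Over the 14 transport kinesins these medians were -0.02, -0.27 and -0.08. Without WA replicate 3 the mitotic median was -0.99 with 10 of 11 called, and without WA replicate 1 it was -1.94 with 11 of 11. With only the 9 SK-N-SH arrays in the fit, 8 of 11 were called. KIF2C, KIF4A and KIFC1 then had adjusted p of 0.0553, 0.0662 and 0.118. The deviations above are from the mean of the DMSO arrays, not from the DMSO array of the same replicate number. Median levels of the mitotic kinesins on replicates 1 to 3 were 8.87, 9.38 and 8.67 with DMSO and 8.67, 7.70 and 6.81 with WA.

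**Figure D2:**
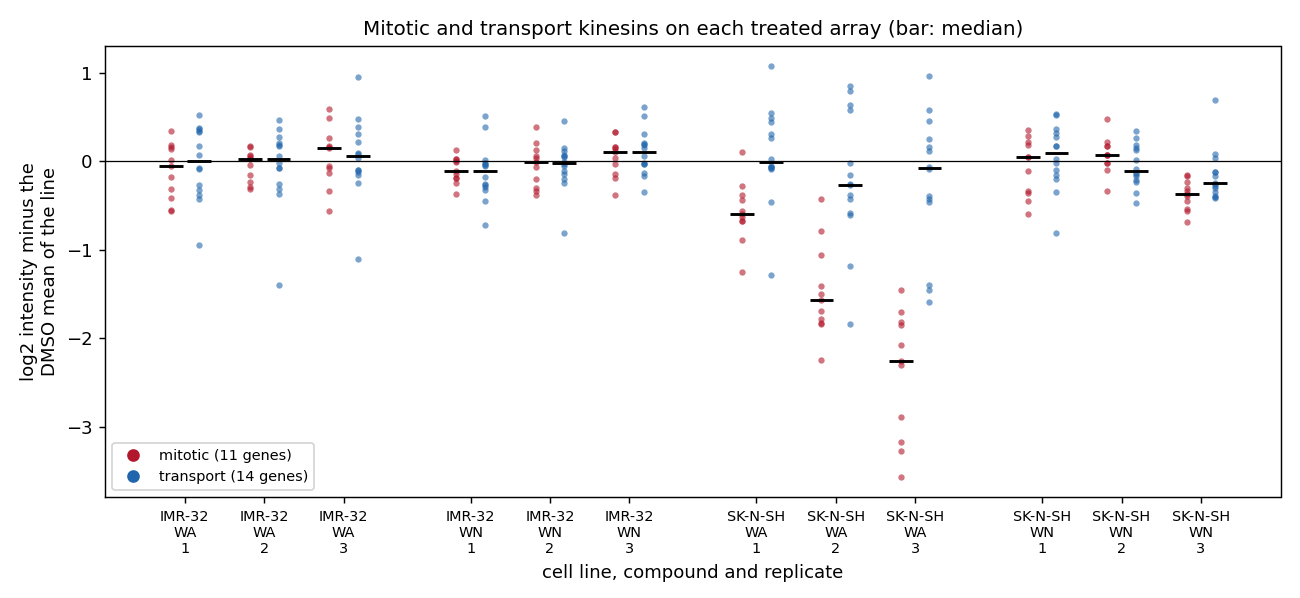
Log2 intensity minus the DMSO mean of the same line for each of 11 mitotic (red) and 14 transport (blue) kinesins on each treated array; bars are medians. The mitotic medians on the SK-N-SH WA arrays are -0.60, -1.57 and -2.26, and on the other 9 treated arrays they lie between -0.37 and 0.15.

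Proximal promoters show motifs that most of the mitotic members share. RefSeq promoters (GRCh38.p14, 250 bases before to 50 after the start) were found for 27 of the 32 tested kinesins, including all 11 mitotic and 11 of the 14 transport members. The cell cycle homology region (CHR), searched as TTTGAA on both strands, is the element bound by the DREAM and MuvB complexes in genes of late cell cycle stages, and the CCAAT box is bound by NF-Y. TTTGAA was in 8 of 11 mitotic promoters (72.7%), 1 of 11 transport promoters (9.09%) and 15.2% of all 35116 promoters. CCAAT was in 9 of 11 (81.8%), 3 of 11 (27.3%) and 34.6%, and both motifs were together in 7 of 11 mitotic promoters against 5.9% of all. Each kinesin was counted by a single promoter, while the 35116 are all promoter entries of full length. These motifs do not overlap each other in the promoters printed here. The promoters below are shown because 4 of these genes fell with WA in SK-N-SH as mitotic members and KIF21A fell as a transport member; capitals mark TTTGAA or CCAAT on either strand, so TTCAAA and ATTGG are the same motifs read on the opposite strand.
KIF11 (chr10:92592880-92593179, plus strand): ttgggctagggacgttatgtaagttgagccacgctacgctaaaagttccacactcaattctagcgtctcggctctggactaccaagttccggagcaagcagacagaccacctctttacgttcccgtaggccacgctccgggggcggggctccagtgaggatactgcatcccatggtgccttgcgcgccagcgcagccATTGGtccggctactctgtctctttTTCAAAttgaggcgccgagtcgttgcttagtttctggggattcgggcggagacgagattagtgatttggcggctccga
KIF15 (chr3:44761544-44761843, plus strand): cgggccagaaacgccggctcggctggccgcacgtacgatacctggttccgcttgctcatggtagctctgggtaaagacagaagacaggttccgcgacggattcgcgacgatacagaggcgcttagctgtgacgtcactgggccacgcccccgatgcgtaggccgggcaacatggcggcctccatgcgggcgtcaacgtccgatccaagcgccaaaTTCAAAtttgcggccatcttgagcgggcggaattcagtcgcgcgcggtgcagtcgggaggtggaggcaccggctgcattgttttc
KIF23 (chr15:69414099-69414398, plus strand): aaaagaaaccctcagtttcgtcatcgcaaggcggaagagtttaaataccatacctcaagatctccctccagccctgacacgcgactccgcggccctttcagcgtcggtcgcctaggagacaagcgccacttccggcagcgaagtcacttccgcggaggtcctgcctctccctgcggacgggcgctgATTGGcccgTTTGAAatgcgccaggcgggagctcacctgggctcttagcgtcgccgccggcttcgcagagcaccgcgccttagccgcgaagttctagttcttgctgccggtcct
KIF20A (chr5:138178862-138179161, plus strand): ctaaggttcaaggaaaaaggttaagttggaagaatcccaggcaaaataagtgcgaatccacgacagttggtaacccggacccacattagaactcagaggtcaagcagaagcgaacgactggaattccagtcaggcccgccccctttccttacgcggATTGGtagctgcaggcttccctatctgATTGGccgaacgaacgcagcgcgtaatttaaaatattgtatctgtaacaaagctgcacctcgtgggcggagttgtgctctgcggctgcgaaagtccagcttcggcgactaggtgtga
KIF21A (chr12:39443071-39443370, minus strand): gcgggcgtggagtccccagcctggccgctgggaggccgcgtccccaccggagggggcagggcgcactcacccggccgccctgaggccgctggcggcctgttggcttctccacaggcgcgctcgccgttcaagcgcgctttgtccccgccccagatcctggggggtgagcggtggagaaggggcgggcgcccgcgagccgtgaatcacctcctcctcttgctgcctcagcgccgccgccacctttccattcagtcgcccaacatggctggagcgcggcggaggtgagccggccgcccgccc
KIF11 holds TTCAAA from base -28 to -23 and ATTGG from -53 to -49, counted from the start site, and KIF15 holds TTCAAA from -35 to -30 with no CCAAT in the window. KIF23 holds TTTGAA from -55 to -50, 4 bases after its ATTGG. KIF20A holds 2 ATTGG boxes, from -94 to -90 and from -67 to -63, and no TTTGAA. KIF21A holds neither motif in these 300 bases, and nor does the mitotic KIF2C, whose promoter is not shown. A match describes the letters only.

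Transport kinesins changed singly in SK-N-SH treated with WA, with 2 of 14 higher and 2 lower. These shares were close to those over all genes, of which 16.4% were higher and 15.4% lower. KIF21A, a motor that restrains microtubule growth near the cell cortex, read 11.24, 11.37 and 10.75 with DMSO, 9.84, 9.28 and 9.72 with WA and 11.02, 10.64 and 10.73 with WN. The WA arrays lay clear of both other groups. The difference from DMSO was -1.51 ± 0.19, 2.85-fold lower (adjusted p 3.19e-05), and it stayed between -1.34 and -1.69 when any single SK-N-SH array of this comparison was left out. KIF5C, a neuronal conventional kinesin heavy chain, read 10.91, 10.76 and 10.04 with DMSO and 10.49, 9.38 and 9.11 with WA. The groups overlapped, and its difference of -0.91 ± 0.33 (adjusted p 0.0453) lost its call in 4 of the 6 fits without an array, with adjusted p between 0.13 and 0.204 in those.

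Of the transport members that rose, KIF1C, a fast long-distance carrier of vesicles, read 5.81, 5.28 and 6.57 with DMSO and 6.95, 6.67 and 6.85 with WA. Its difference was 0.94 ± 0.28, 1.92-fold higher (adjusted p 0.0169); without DMSO replicate 1 the adjusted p was 0.0536, and without DMSO replicate 2 the difference was 0.64 with an adjusted p of 0.099. KIF17, a dendritic motor that carries NMDA receptor subunits, read 5.38, 5.16 and 5.48 with DMSO and 5.82, 5.91 and 5.91 with WA. That difference was 0.54 ± 0.13 (adjusted p 0.00493), without overlap. KIF17 was detected only on the SK-N-SH DMSO and WA arrays, through which it passed the filter.

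KIF1A, the carrier of synaptic vesicle precursors in axons, read 11.22, 11.09 and 10.35 with DMSO, 11.32, 10.46 and 9.30 with WA and 11.21, 11.23 and 10.48 with WN. WA replicate 3 was low and WA replicate 1 was the highest of the WA and DMSO arrays, so the difference of -0.53 had a 95% interval from -1.33 to 0.27 and did not pass the test (adjusted p 0.312). Without WA replicate 1 it was -1.01 with an adjusted p of 0.0256, and without WA replicate 3 it was 0.00. KIF5B, the ubiquitous conventional heavy chain, differed by 0.03, with an interval from -0.51 to 0.56. KIF3B, a kinesin-2 motor subunit, differed by -0.03 (interval -0.37 to 0.32), which leaves out changes as large as those of any mitotic kinesin. The remaining 7 of the 10 transport members that did not pass included KIF13A, undetected on all 3 DMSO arrays, and KIF21B, undetected on all 3 WA arrays and 2 of the DMSO arrays; the 5 others had differences between -0.25 (KIF3C) and 0.22 (KIF13B). For KIF1B, a carrier of mitochondria and synaptic vesicle precursors, the 3 kept probes gave -0.12, 0.53 and -0.11 and so disagreed.

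Of the 7 other members, 2 fell with WA in SK-N-SH, where 15.4% of all genes did. KIF26A, an atypical kinesin that binds microtubules without motor activity, read 8.03, 7.69 and 7.68 with DMSO and 6.94, 5.66 and 5.41 with WA, a difference of -1.80 ± 0.27, 3.47-fold lower (adjusted p 0.000151). The groups were apart, again with replicate 1 nearest to DMSO. KIF24, a depolymerase that holds back cilium formation, read 6.70, 6.79 and 6.71 with DMSO and 6.74, 5.64 and 5.28 with WA. WA replicate 1 matched DMSO, and its difference of -0.85 ± 0.27 (adjusted p 0.0243) lost its call in 4 of the 6 fits without an array, the largest adjusted p being 0.14. KIF26B, a paralog of KIF26A, read 7.36, 7.32 and 7.43 with DMSO and 7.21, 6.55 and 6.30 with WA; the difference of -0.69 had an adjusted p of 0.0921, or 0.0164 with the replicate number as a block.

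In IMR-32 the same dose of WA left the mitotic kinesins without a call. Of the 11, 0 passed the test and 0 had an unadjusted p under 0.05, and their median difference was 0.05, while 14.5% of all genes were called in this comparison, 8.04% higher and 6.47% lower. KIF20A read 11.16, 11.39 and 11.25 with DMSO, 11.43, 11.43 and 11.86 with WA and 11.29, 11.47 and 11.59 with WN. The WA arrays lay above the DMSO arrays, yet the difference of 0.30 had a 95% interval from -0.67 to 1.28. KIF11 read 10.17, 10.05 and 10.27 with DMSO, 9.84, 9.87 and 10.02 with WA and 10.19, 10.28 and 10.32 with WN, and its difference with WA was -0.25 (interval -0.87 to 0.36).

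KIF23 and KIF2C were as level. KIF23 read 9.77, 9.77 and 9.72 with DMSO, 9.58, 9.82 and 9.92 with WA and 9.64, 9.81 and 9.86 with WN, so the groups overlapped. KIF2C read 9.68, 9.67 and 9.58 with DMSO, 9.58, 9.60 and 9.90 with WA and 9.63, 9.68 and 9.67 with WN. Their differences with WA were 0.02 (interval -0.62 to 0.66) and 0.05 (interval -0.80 to 0.90). The fit behind these intervals shares its spread with SK-N-SH, where replicates varied more.

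KIF15 and KIF14 had the largest mitotic differences in IMR-32. KIF15 read 9.54, 9.58 and 9.32 with DMSO, 8.91, 9.24 and 8.91 with WA and 9.29, 9.15 and 9.29 with WN. Its WA arrays lay below the DMSO arrays, and the difference of -0.46 ± 0.22 had an adjusted p of 0.182, which became 0.0282 with the replicate block and 0.031 with only the IMR-32 arrays in the fit. KIF14 read 10.06, 10.25 and 10.43 with DMSO, 9.70, 10.08 and 9.90 with WA and 9.99, 9.86 and 9.86 with WN. Its difference with WA was -0.35 (interval -0.97 to 0.27), with overlap. The WA and DMSO arrays did not overlap for 4 of the 11 mitotic kinesins, below or above, against 40.4% of all genes.

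KIF21B, a neuronal relative of KIF21A that slows microtubule growth, was the only kinesin past the threshold for WA in IMR-32. It read 5.47, 5.79 and 6.26 with DMSO, 4.89, 4.44 and 4.74 with WA and 5.11, 5.03 and 5.81 with WN. It was not well above background on any of the 3 WA arrays, so it was at least 1.82-fold lower with WA, and 1.58 to 2.07-fold when single arrays were left out (measured difference -1.15 ± 0.22, adjusted p 0.00211). Such a bound sets the DMSO mean against the lowest signal called detected on each array. The other 2 probes of KIF21B were detected on 0 arrays. KIF21B was detected on 5 arrays and passed the filter only through the 3 DMSO arrays of IMR-32, where it is high. Its call therefore supports nothing by itself. KIF26B read 5.35, 5.22 and 4.53 with DMSO, 6.00, 6.10 and 5.71 with WA and 6.11, 5.57 and 5.06 with WN. The WA arrays lay above DMSO and the difference was 0.90 ± 0.30 with an adjusted p of 0.0524, or 0.00681 with the replicate block, under which 3 of 32 kinesins were called in place of 1.

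The remaining transport members differed little in IMR-32. KIF1A read 11.82, 11.79 and 12.29 with DMSO, 11.89, 11.65 and 12.01 with WA and 11.63, 11.94 and 12.27 with WN. KIF5C read 10.28, 10.03 and 11.00 with DMSO, 10.51, 10.50 and 10.82 with WA and 10.39, 10.19 and 10.95 with WN. For both, replicate 3 was the highest in every group and the groups overlapped. Their differences with WA were -0.12 (interval -0.91 to 0.68) and 0.17 (interval -0.53 to 0.87). KIF21A, which fell in SK-N-SH, read 11.14, 11.26 and 11.42 with DMSO and 10.89, 10.90 and 11.02 with WA, a difference of -0.34 (interval -0.73 to 0.06) that did not pass the test although the groups were apart.

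**Figure D3:**
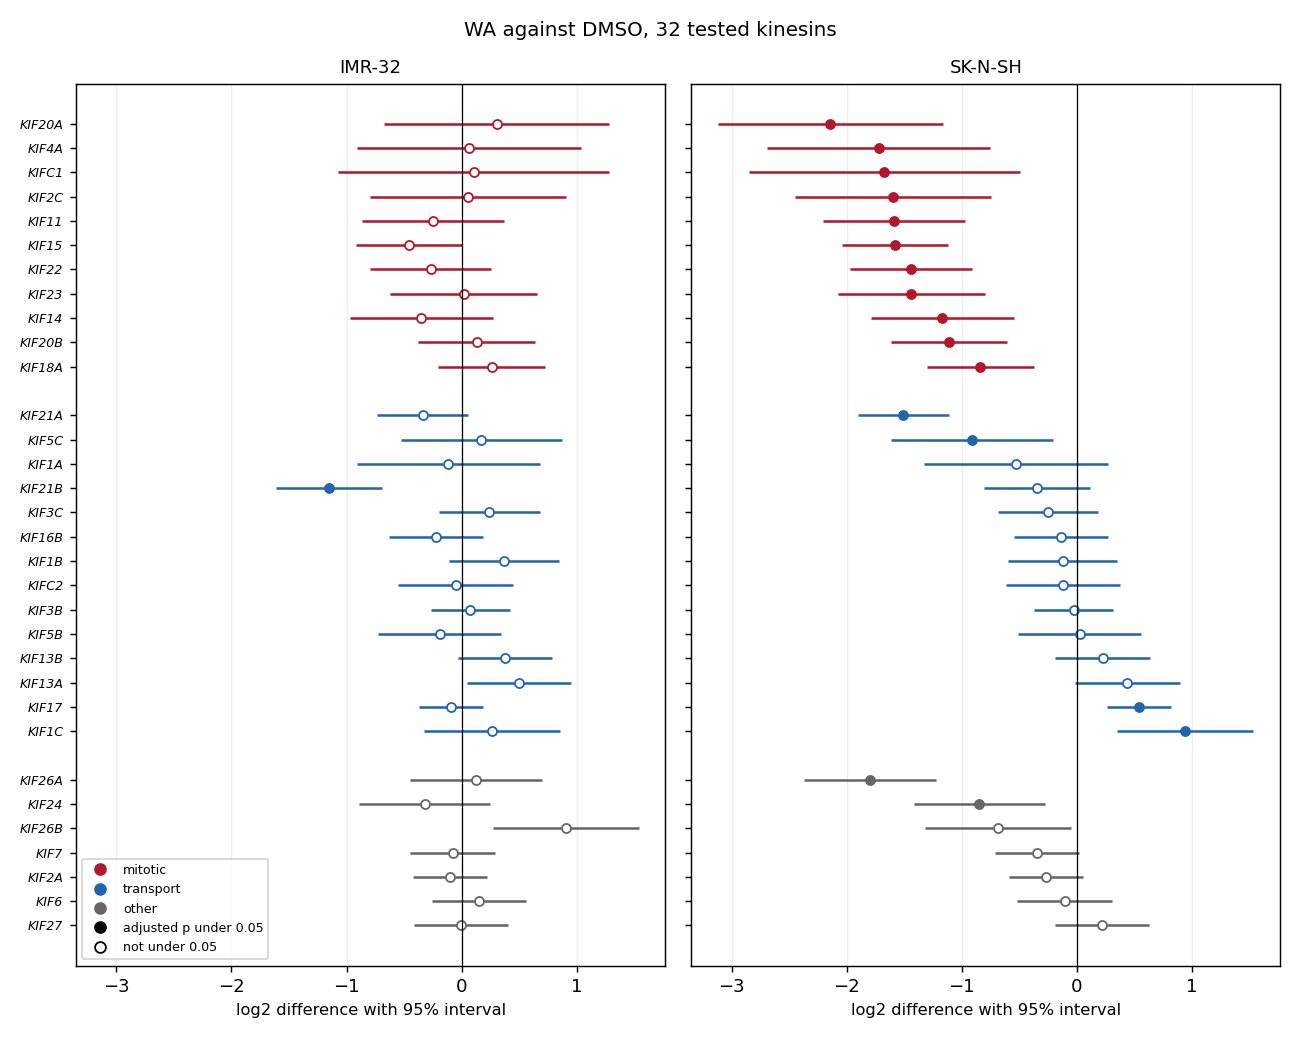
Log2 difference between WA and DMSO for the 32 tested kinesins in IMR-32 (left) and SK-N-SH (right), with 95% intervals; filled points have an adjusted p under 0.05. In SK-N-SH all 11 mitotic members are filled and below 0, from -0.84 to -2.14, and in IMR-32 the filled point is KIF21B at -1.15.

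Whether the WA effect differed between the lines was tested as an interaction. Of 32 kinesins, 7 had a lower effect in SK-N-SH than in IMR-32 and 0 a higher one, where 6.66% of all genes were called, 3.35% lower and 3.31% higher. All 11 mitotic differences were negative, with a median of -1.34, and 4 passed the test: KIF20A at -2.44 ± 0.65, KIF20B at -1.24 ± 0.34, KIF15 at -1.12 ± 0.31 and KIF18A at -1.10 ± 0.31. KIF23, KIF22 and KIF11 had adjusted p of 0.0506, 0.0557 and 0.0605. In IMR-32, KIF20B read 9.55, 9.41 and 9.70 with DMSO and 9.74, 9.62 and 9.70 with WA, and KIF18A read 7.44, 7.71 and 7.63 and then 7.73, 7.76 and 8.08, so neither fell there.

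KIF21A (-1.17 ± 0.26), KIF26A (-1.92 ± 0.38) and KIF26B (-1.59 ± 0.42) were the other members called in the interaction. KIF26A read 8.83, 8.65 and 8.55 with DMSO and 8.62, 9.00 and 8.77 with WA in IMR-32, with overlap, in contrast to its fall in SK-N-SH. The number of calls varied between fits. With the replicate number as a block 15 of 32 kinesins were called, 10 of them mitotic, and without SK-N-SH WA replicate 1 it was 17, also with 10 mitotic. Without SK-N-SH DMSO replicate 3 there were 6 mitotic calls, and leaving out any other array left 0 or 1. KIF21A and KIF26A kept their calls in all 12 fits that left out an array, while KIF26B lost its call in 8 of them, KIF20A, KIF20B and KIF18A in 9 each and KIF15 in 10, with adjusted p up to 0.104. KIF17 ran the other way, at 0.63 ± 0.19, and had an adjusted p of 0.0507, or 0.0396 with the replicate block. It was not well above background on any IMR-32 array. KIF17 passed the filter through SK-N-SH arrays alone, so this difference supports nothing by itself.

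WN at the same dose and time gave no kinesin past the threshold in either line by the probe that stood for each gene. The second kept probe of KIF3B, detected on all 18 arrays, disagreed. For IMR-32 it gave a difference of 0.62 ± 0.14 (log2, SE) against 0.14 by the brighter probe, and for SK-N-SH 0.57 ± 0.14 against 0.27. In IMR-32, 0 of 32 kinesins passed, with limma as elsewhere, where 4.59% of all genes did (2.4% higher and 2.19% lower); 1 was higher and 2 were lower at an unadjusted p under 0.05. The largest mitotic differences there were KIF14 at -0.34 (interval -0.96 to 0.28) and KIF15 at -0.24 (interval -0.70 to 0.22), both without overlap, which 2 of 11 mitotic kinesins and 31.5% of all genes showed. KIF2A, a microtubule depolymerase of dividing cells and neurons, read 9.56, 9.51 and 9.73 with DMSO, 9.48, 9.37 and 9.66 with WA and 9.82, 9.94 and 10.18 with WN. The WN arrays were the highest, at a difference from DMSO of 0.38 and an adjusted p of 0.164. KIF27, a ciliary protein related to KIF7, was detected on 2 of 3 DMSO arrays of IMR-32 and not well above background on any WN array there, and its adjusted p was 0.163.

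In SK-N-SH 0 of 32 kinesins passed with WN, where 1.83% of all genes did (0.925% higher and 0.909% lower), and 1 was lower at an unadjusted p under 0.05. The mitotic median was -0.11. KIF11 read 9.81, 9.60 and 9.29 with WN and KIF23 read 9.00, 9.09 and 8.77, both overlapping the DMSO arrays. KIF22 (10.23, 10.35 and 10.00 with WN) and KIF18A (6.48, 6.98 and 6.54 with WN) lay below all DMSO arrays, with differences of -0.49 (interval -1.02 to 0.04) and -0.41 (interval -0.88 to 0.05) that did not pass; the groups were apart for these 2 of the 11 and for 21.8% of all genes. KIF17 read 4.52, 4.98 and 4.92 with WN, not well above background on any of these arrays, and was at least 1.3-fold lower than with DMSO. Its adjusted p was 0.0502, or 0.0449 with the replicate block. KIF17 passed the filter through the SK-N-SH DMSO and WA arrays alone, so this difference supports nothing by itself. The WN effect did not differ between the lines for any kinesin at the threshold, nor for any of the 12975 genes (0%); 0 kinesins were higher and 1 was lower at an unadjusted p under 0.05, KIF17, which was not well above background in 3 of the 4 groups of this comparison.

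**Figure D4:**
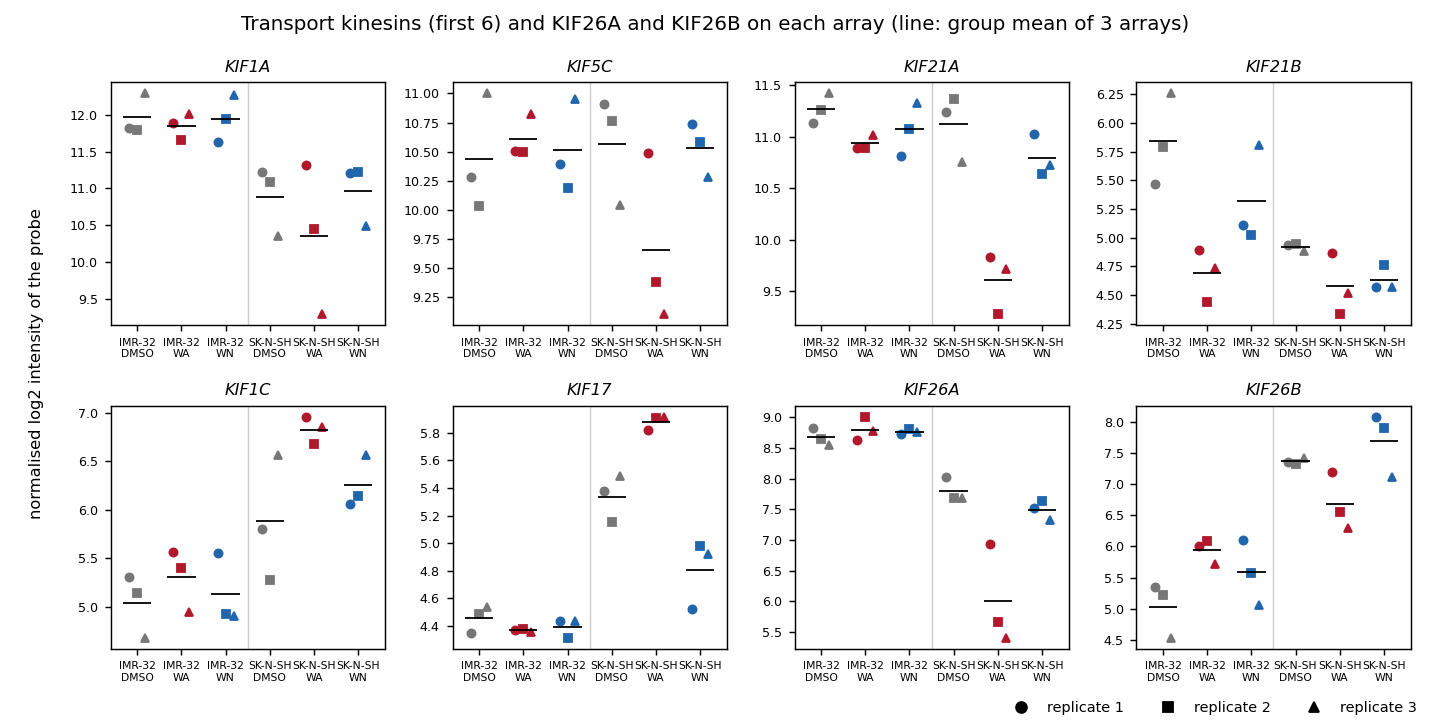
Normalised log2 intensity of KIF1A, KIF5C, KIF21A, KIF21B, KIF1C and KIF17 (transport) and of KIF26A and KIF26B on the 18 arrays; points are arrays, marker shape is the replicate and lines are group means of 3 arrays. KIF21A and KIF26A are low in SK-N-SH with WA (-1.51 and -1.80 against DMSO), and KIF21B is low in IMR-32 with WA (-1.15).

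The 2 compounds were then set against each other at 1 µM, a single pair compared in each line with p-values adjusted over all genes. The WN arrays differed in scale before normalisation, so compound and array scale cannot be told apart here. In SK-N-SH, 18 of 32 kinesins differed between WA and WN, against 38.3% of all genes (20.7% higher with WA and 17.7% lower). Of the 11 mitotic members 10 were lower with WA, at a median of -1.39 over the class. KIF20A differed by -2.10 ± 0.46, KIF4A by -1.79 ± 0.46, KIF11 by -1.62 ± 0.29 and KIF15 by -1.59 ± 0.22. KIF4A read 9.13, 9.43 and 8.51 and KIF15 read 8.36, 8.07 and 7.63 with WN. KIF18A did not pass, at -0.43. The WA and WN arrays did not overlap for 7 of the 11, against 42.9% of all genes. Leaving out WA replicate 3 moved KIF2C to -0.74 and KIFC1 to -0.69, and these calls were lost in 2 and 4 of the 6 fits without an array.

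Among transport members WA and WN differed in SK-N-SH for KIF17, KIF13A, KIF21A and KIF5C, by the probe that stood for each gene. These 4 of 14 were a smaller share than the 38.3% of all genes called. The second kept probe of KIF3B gave -0.63 ± 0.14, against -0.30 by the brighter one. By the mean of its kept probes KIF3B was lower with WA, at -0.46 (adjusted p 0.0141). The 3 kept probes of KIF1B gave -0.31, 0.69 and -0.35 and so disagreed. KIF17 exceeded its WN level at least 1.89-fold under WA, with an adjusted p of 1.91e-05. It passed the filter through the SK-N-SH DMSO and WA arrays alone, so this call supports nothing by itself. KIF13A, a motor of endosomal cargo, read 4.61, 5.43 and 5.03 with WA and 4.38, 4.45 and 4.42 with WN; undetected on all WN arrays and detected with WA on 2 of 3, it was at least 1.04-fold higher (adjusted p 0.0341), and 5 of the 6 fits without an array lost that call. KIF13A was detected on 3 arrays, all of them with WA, and passed the filter through these alone, so its call supports nothing by itself. KIF21A was lower with WA by 1.19 ± 0.19 on the log2 scale, 2.28-fold, and KIF5C was 1.83-fold lower, a call lost in 4 of 6 such fits. Of the other class KIF26A, KIF26B, KIF24 and KIF2A were lower with WA, at 2.81, 2.02, 1.84 and 1.32-fold. These were 4 of 7, where 17.7% of all genes were lower. The calls of KIF26B, KIF24 and KIF2A were lost in 3, 4 and 5 of the 6 fits without an array.

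In IMR-32 the compounds differed for 2 of 32 kinesins, where 23.7% of all genes did, and for 0 of 11 mitotic members. KIF2A was lower with WA than with WN at -0.48 ± 0.15 (adjusted p 0.0308), without overlap, and lost its call in 4 of the 6 fits without an array. KIF21B was also called lower with WA (adjusted p 0.0463), a call lost in 5 of those 6 fits. It was detected on 0 of the WA arrays and 1 of the 3 WN arrays of IMR-32, so its fold is not given. The second kept probe of KIF3B gave -0.44 ± 0.14, against -0.06 by the brighter one. No mitotic kinesin had an interval beyond -1.25 to 1.11 for the difference, so changes of the size seen for KIF20A in SK-N-SH lie outside every mitotic interval, while smaller differences between the compounds cannot be told from none. KIF18A (0.37, interval -0.09 to 0.84) and KIF11 (-0.35, interval -0.97 to 0.27) had the largest mitotic differences, and KIF11 was the single mitotic member whose WA and WN arrays did not overlap, as those of 43.4% of all genes did not. The second probe of KIF11 gave 0.01 for this difference.

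The lines themselves differed before treatment, with 16 of 32 kinesins past the threshold under DMSO, a share close to the 51.5% of all genes. The direction followed the class in part. All 11 mitotic differences (SK-N-SH minus IMR-32) were negative, with a median of -0.66, and 3 passed: KIF15 at -1.47 ± 0.22, KIF14 at -1.44 ± 0.29 and KIF20B at -0.71 ± 0.24, whose call was lost in 3 of the 6 fits without an array. Over all genes 24.5% were lower, a share close to these 3 of 11. The arrays of the lines did not overlap for 9 of the 11, as for 61.8% of all genes. KIF20A (-0.83), KIF23 (-0.64) and KIF11 (-0.63) did not pass the test, with adjusted p of 0.145, 0.0858 and 0.0802. With the replicate block the adjusted p of KIF11 was 0.0149 and that of KIF18A 0.0222.

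Of the 14 transport members 7 were higher in SK-N-SH and 2 lower, where 27% of all genes were higher and 24.5% lower. KIFC2, a minus-end-directed motor of neurons, read 6.23, 6.29 and 6.41 in IMR-32 and 8.32, 7.96 and 8.81 in SK-N-SH with DMSO, 4.14-fold higher (adjusted p 1.62e-06). KIF13B, a motor that carries signalling complexes and myelin-related cargo, read 6.41, 6.26 and 6.89 and then 7.91, 8.02 and 8.55, 3.12-fold higher. Neither passed the test with WA in SK-N-SH, where the 95% intervals ran from -0.62 to 0.38 for KIFC2 and from -0.19 to 0.63 for KIF13B.

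KIF3B, KIF3C, KIF1C, KIF1B and KIF17 were the other transport members higher in SK-N-SH. KIF3B was 1.81-fold higher and KIF3C, another kinesin-2 subunit, 1.43-fold, the latter losing its call in 5 of 6 fits without an array. KIF1C was 1.79-fold higher with overlapping groups and a call lost in 2 of those fits, and KIF17, undetected in IMR-32, at least 1.19-fold. KIF17 passed the filter through SK-N-SH arrays alone, so its call supports nothing by itself. The KIF1B call (0.66) was lost in 4 of those fits and rests on its brightest probe, since its other 2 probes gave 0.00 and -0.09. KIF1A went the other way, 2.11-fold lower in SK-N-SH, with an adjusted p of up to 0.116 without an array. KIF21B was also called lower, but it was detected on 1 of the 3 SK-N-SH DMSO arrays, so its fold is not given. It passed the filter only through the IMR-32 DMSO arrays, so this call supports nothing by itself. KIF5C, KIF21A, KIF13A, KIF5B and KIF16B did not pass.

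KIF26B showed the largest difference between the lines of any kinesin, with 5.35, 5.22 and 4.53 in IMR-32 and 7.36, 7.32 and 7.43 in SK-N-SH, 5.05-fold higher (adjusted p 5.71e-06). Its paralog KIF26A was 1.83-fold lower in SK-N-SH, so the pair ran in opposite directions. KIF7, a ciliary regulator of Hedgehog signalling, read 8.02, 7.99 and 8.00 in IMR-32 and 7.32, 7.26 and 7.33 in SK-N-SH, 1.62-fold lower with replicates that hardly differed. KIF27 was at least 1.09-fold lower in SK-N-SH, where it was undetected, a call lost in 4 of 6 such fits.

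**Figure D5:**
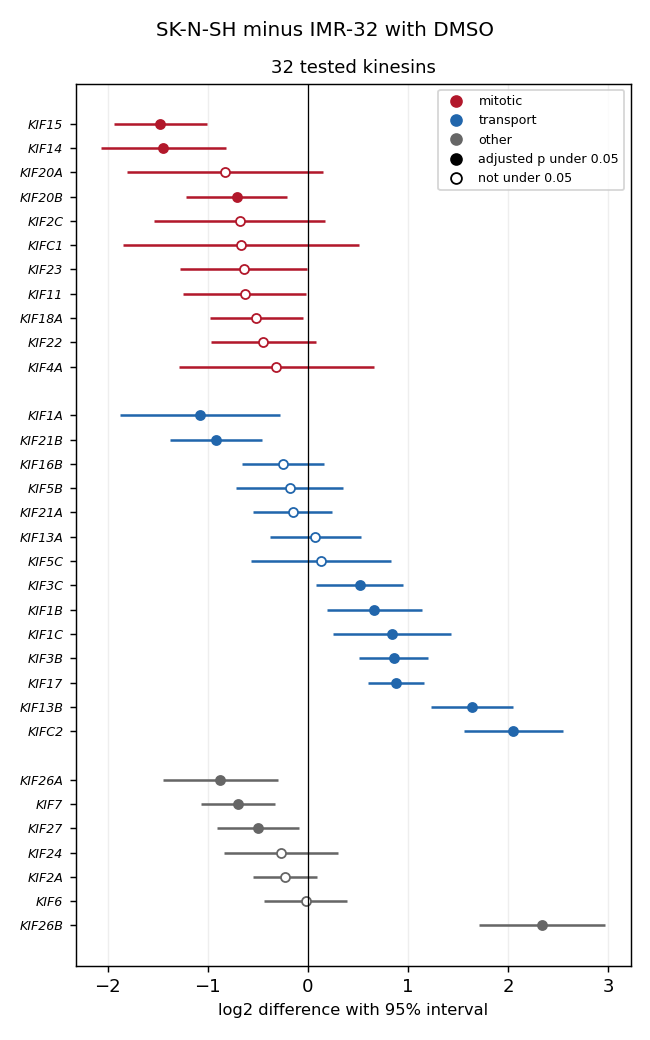
Log2 difference between SK-N-SH and IMR-32 with DMSO for the 32 tested kinesins, with 95% intervals; filled points have an adjusted p under 0.05. All 11 mitotic members lie below 0, from -0.31 (KIF4A) to -1.47 (KIF15), and the transport members spread from -1.08 (KIF1A) to 2.05 (KIFC2).

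Partners of the kinesins were described from lists of the same pathways. Of 23 tested spindle and cytokinesis partners, 20 fell with WA in SK-N-SH, at a median of -1.37, where 15.4% of all genes were lower. The largest falls were those of AURKB, the kinase of the passenger complex that KIF20A carries (-2.25), and of the mitotic kinase CDK1 (-1.75) and its cyclins CCNB2 (-1.74) and CCNB1 (-1.73). On WA replicates 1 to 3 the median deviation of the partners was -0.28, -1.24 and -2.41, beside -0.60, -1.57 and -2.26 for the mitotic kinesins. On replicate 1, 9 of the 23 partners lay below the lowest DMSO array, and on replicates 2 and 3 all 23 did. The WA and DMSO arrays did not overlap for 9 of the 23, a share close to the 35.8% of all genes. In IMR-32, 0 of 23 were called with WA by limma, with 1 higher at an unadjusted p under 0.05, and the median was 0.23. Under DMSO 5 of 23 were lower in SK-N-SH than in IMR-32, at a median of -0.63, a share close to the 24.5% of all genes that were lower.

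Of 18 regulators of cell cycle promoters, 2 were higher and 7 lower with WA in SK-N-SH, where 16.4% of all genes were higher and 15.4% lower. FOXM1, an activator of late cell cycle genes, fell by 1.66 on the log2 scale, and RBBP4, a subunit of MuvB and of chromatin complexes, by 1.27. CDKN1A, which encodes the CDK inhibitor p21, rose by 1.4, and LIN37 of the MuvB core by 0.83. In IMR-32 CDKN1A also rose, by 1.07, E2F8 fell by 1.39, and FOXM1 (-0.20, adjusted p 0.82) did not pass; these were 1 higher and 1 lower of 18, close to the 8.04% and 6.47% of all genes.

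Of 20 light chains and cargo adaptors, 1 rose and 3 fell with WA in SK-N-SH, with a median of -0.07 and a smaller share called than the 31.9% of all genes. PLEKHM2 rose by 0.39, while SYBU fell by 1.29, DPYSL2 by 0.88 and TRAK1, the mitochondrial adaptor, by 0.77. In IMR-32 PLEKHM2 rose by 0.54, KLC4 fell by 0.49 and GRIP1, undetected with WA, was lower. Over all genes 8.04% were higher there and 6.47% lower. Dynein and dynactin, the motor complex of the opposite direction, had 2 higher and 3 lower of 20 in SK-N-SH. This was also a smaller share than over all genes. They had 4 higher and 0 lower of 20 in IMR-32, where 8.04% of all genes were higher and 6.47% lower. NDEL1, a dynein regulator, rose in both, by 1.12 and 0.57, and DYNC1H1, the dynein heavy chain, rose by 0.95 in IMR-32.

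Markers of cell state and of other cell types moved beside the kinesins in SK-N-SH treated with WA. Of 9 adrenergic neuroblast markers 5 fell, where 15.4% of all genes did, at a median of -1.04 and with median deviations of -0.62, -0.92 and -1.30 on replicates 1 to 3, and of 10 mesenchymal markers 2 rose and 1 fell, close to the shares over all genes (16.4% and 15.4%), with deviations of -0.05, 0.42 and 0.12. All 3 tested immune cell markers (CD14, CD68 and HLA-DRA) rose, at a median of 0.85, and MBP, the single tested Schwann cell marker, rose by 0.74. The defining immune genes PTPRC and CD3E and the Schwann cell gene SOX10 had no probe that passed the filter. In IMR-32 1 adrenergic marker rose and 2 fell with WA, and of the mesenchymal ones 1 rose and 1 fell. Of all genes 8.04% were higher there and 6.47% lower. The part of these markers in the kinesin values was not tested.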

How the data were processed

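Total RNA of 18 cultures was labelled as biotinylated cRNA and hybridised to Illumina HumanHT-12 v4 arrays, per the labels' protocols. The deposited table gives a linear intensity and a detection p-value per probe and array, with no normalisation between arrays, per the file headers. The authors' series matrix holds log2 values with identical quantiles on every array; the submitters' processing notes name limma, with no version and no background step. For 17004 probes the deposited detection p-value of a WN array departed by more than 0.02 from what its own signal gave, so it was derived again as a falling function of that signal (running median of 101 probes). From 47224 probes, 2 with missing values were left out. Intensities were corrected, quantile-normalised and taken to log2 with neqc (normexp, offset 16) of limma 3.58.1 in R 4.3.3. Of 23320 probes with a detection p under 0.01 on at least 3 arrays, 17745 had a gene symbol in the platform annotation; 8 probes of the table list several genes and 17107 none, and these were not used. The brightest kept probe stood for a gene.

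One mean per group was fitted over the 18 arrays (lmFit and eBayes, 12 residual and 4.46 prior degrees of freedom), with Benjamini-Hochberg adjustment over 12975 genes, a threshold of 0.05 and 95% intervals. Every p in the text is limma's. The fit was tested on simulated data. The number of arrays limits the precision. Values on every array are given for the kinesins named in the family's rule and, in each comparison, for up to 4 members of each class with the largest change past the threshold, or the 2 largest if none passed. Other members may be named with their change. Members and lists were chosen with earlier results of these data known.

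Replicate numbers come from the labels. Deviations from the group means of same-numbered WA and DMSO arrays correlated at 0.245, 0.191 and 0.296 in IMR-32 and 0.318, 0.214 and 0.308 in SK-N-SH, and those of WN and DMSO arrays at 0.161, 0.170 and 0.338 and at 0.458, 0.372 and 0.663. All exceeded 0.1, so the numbers were taken to pair these arrays. The main fit held no replicate block, so its p-values leave this pairing out, and the block was run as an alternative. Those of WA and WN arrays correlated between 0.0424 and 0.413 and were not taken as paired by this rule. The block still pairs them, since the DMSO, WA and WN arrays of a replicate number in a line share its term. Alternatives were the authors' log2 values, an offset of 50, no filter, the detection p as deposited, the mean over kept probes, a replicate block, a fit within a line, array weights and leaving out each array.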

Additional observations from a re-analysis of the deposited data

Results flagged for a closer look

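The effect of WA differed between the lines, by the test of the difference itself, for 7 kinesins, each with a lower value in SK-N-SH than in IMR-32. KIF20A differed by -2.44 ± 0.65 (log2, SE; limma adjusted p 0.0342). KIF26A differed by -1.92 ± 0.38 (adjusted p 0.0078), and its relative KIF26B by -1.59 ± 0.42 (adjusted p 0.0333). KIF20B differed by -1.24 ± 0.34 (adjusted p 0.0372) and KIF21A by -1.17 ± 0.26 (adjusted p 0.0148). KIF15 differed by -1.12 ± 0.31 (adjusted p 0.039) and KIF18A by -1.10 ± 0.31 (adjusted p 0.0441). The WA differences of KIF26B had opposite signs, 0.90 for IMR-32 and -0.69 for SK-N-SH, of which neither passed the test by itself. Groups of 3 arrays were too small for a search for outlying arrays.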

How the results depend on the processing

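Across the alternatives no difference that passed the test changed sign. The count of kinesins past the threshold stayed within 1.5 times the reported one for WA against DMSO in SK-N-SH (12 to 20, or 13 to 21 when single arrays were left out; reported 17), WA against WN in SK-N-SH (13 to 21 and 12 to 20; reported 18), the lines under DMSO (14 to 21 and 11 to 15; reported 16) and the difference of the WN effect (reported 0). For WA against DMSO in IMR-32 the count moved from 1 to 3 with the replicate block, 3 with only the arrays of the line and 4 with array weights. For WN against DMSO it moved from 0 to 3 in IMR-32 with array weights, and in SK-N-SH to 1 without the filter, 1 with the detection p as deposited, 1 with the replicate block and 2 with array weights, with 0 to 1 when single arrays were left out (1 without DMSO replicate 2). For WA against WN in IMR-32 it moved from 2 to 1 with the authors' values, with an offset of 50, without the filter or with the detection p as deposited, to 4 with array weights, and to between 0 and 1 when single arrays were left out. The count for the difference of the WA effect moved from 7 to 3 without the filter, 15 with the replicate block and 16 with array weights, and ranged from 2 to 17 when single arrays were left out. The causes were not tested. The replicate block changed no other count by over 1.5 times. The values of single kinesins were tallied together with the counts of the mitotic and transport classes. Of these, 4293 kept their side of the threshold or, as counts, stayed within 1.5 times the reported one. Another 153 values fell short of the threshold, 90 newly passed it, and 54 class counts moved beyond that range. Dim signal limits KIF6, KIF13A, KIF17, KIF21B and KIF27, which were detected on between 3 and 6 arrays.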
